A study of Rattus norvegicus with 16 samples.

Results

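N6-methyladenosine (m6A) is adenosine with an added methyl group, and the stretches of transcript that hold it can be pulled down with an antibody and compared with input fragments that were not pulled down. The regions described here are the m6A peaks that the authors' deposited list for VCD ovary holds and that share no base, on the same chromosome and strand, with any peak of the list for CON ovary. They number 1779 of the 21528 VCD peaks (8.26%) and lie in 1607 of the 12841 genes with a VCD peak (12.5%). The remaining 19749 VCD peaks overlapped a CON peak, and 2684 of 22316 CON peaks (12%) were CON-only. The ovaries came from 4 rats labelled VCD (4-vinylcyclohexene diepoxide, an epoxide that destroys small ovarian follicles) and 4 labelled CON. Each gave an m6A immunoprecipitation (IP) library and an input library of fragmented poly(A) RNA. The labels name Rattus norvegicus and ovary, whereas the series text speaks of mice. The sources used here give no strain, age, dose, length of exposure or treatment of the CON rats. The peaks were chosen by the authors' calls on measured IP and input signals, so their position, enrichment and overlap are given as descriptions with no test.

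The mark is written co-transcriptionally by a METTL3-METTL14 complex, mostly in adenosines followed by cytosine, and is densest around stop codons and in long internal exons of mRNA. Demethylases such as FTO and ALKBH5 remove it, and reader proteins of the YTH and IGF2BP families tie it to mRNA decay, translation and stability. A second methylated adenosine beside the cap (m6Am) is bound by the same antibodies, so signal at the very 5′ end of a transcript can come from either mark. In the ovary, m6A on maternal transcripts is known for its part in oocyte growth and maturation.

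The peaks at the 5′ end are the class in which RefSeq sequence could be set beside a region. Of 130 VCD-only peaks in a 5′ UTR, 35 began exactly at the 5′ end of their gene in the authors' table, and 26 of these genes have an entry among RefSeq promoters (build GRCr8). The first 30 transcribed bases of 6 of them are printed because these genes are described below. The authors' notes name a human build and no rat build, so a RefSeq start may not be the start the authors used. The capitals mark GGAC, the commonest core of the m6A consensus, searched on the transcript strand only since the mark lies in RNA.
Cyp11a1 (chr8:67318665-67318694, + strand): ggaaagtggcagtcgtggGGACagtatgct
Cyp51 (chr4:30991693-30991722, + strand): tttcccgagaagcggcagGGACctcggcct
Per1 (chr10:54304376-54304405, + strand): gtacccgttgtggcctcttcaccttccctg
Osgin1 (chr19:64393901-64393930, + strand): ctcagttggtagcgtgcttgtctagcatgc
Ankrd11 (chr19:68007462-68007491, - strand): ccgccgcagccaccgctgggtcctggagcc
Prpf6 (chr3:189084465-189084494, + strand): gacgtactgactgcatctcttccagctgcg
GGAC stood in 5 of the 26 windows (19.2%). Over all VCD-only peaks of the 5′ UTR whose gene has an entry, it stood in the gene's window in 13 of 94 (13.8%). Of all 33469 RefSeq windows of the same length, 3597 held it (10.7%). Only 35 of the 130 peaks begin at the gene's 5′ end, so most of these windows need not lie in the peak. A match is a string of letters and not a methylated site.

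Input levels were deposited as FPKM per gene, which hold no read totals, so the depth behind each value is unknown. Library sums were 406479 to 421628 FPKM in VCD and 403809 to 414332 FPKM in CON. Genes at 1 FPKM or more numbered 13220 to 13574 in VCD libraries and 13618 to 13835 in CON libraries. Markers of granulosa, theca and luteal, oocyte, stromal, endothelial, muscle, blood, immune, adipocyte and oviduct cells were looked up. The table lists 1 of 3 oviduct and 2 of 3 blood markers and all of the other types, and 0 of those listed were at 0 in all 8 libraries. The 7 oocyte markers summed to 5.65 to 8.82 FPKM in VCD libraries and 20.6 to 34.1 FPKM in CON libraries, and the 5 stromal markers to 401 to 582 FPKM in VCD and 553 to 774 FPKM in CON. The 4 endothelial markers summed to 110.8 to 130.2 FPKM in VCD and 79.7 to 105 FPKM in CON, and the 3 adipocyte markers to 28.7 to 31.3 FPKM in VCD and 22.1 to 24.9 FPKM in CON. VCD and CON ranges overlapped for the stromal markers and for the 6 other types. The part of these marker differences in the values below was not tested. Of all markers, 1 had a VCD-only peak, Cyp11a1.

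VCD-only peaks lay mainly inside coding exons and 3′ UTRs rather than at stop codons. The authors' annotation put 748 (42.0%) in exons, 459 (25.8%) in 3′ UTRs, 210 (11.8%) at start codons, 137 (7.7%) at stop codons, 130 (7.31%) in 5′ UTRs and 88 (4.95%) in exons of noncoding RNA. Of the VCD peaks that overlap a CON peak, 35.2% lay at stop codons, 25.7% in exons and 2.72% in 5′ UTRs. The CON-only peaks had nearly the layout of the VCD-only ones, with 42.2% in exons, 28.6% in 3′ UTRs, 8.53% at stop codons and 6.33% in 5′ UTRs. Seen by class, 19.5% of VCD peaks in 5′ UTRs were VCD-only, against 24.6% of CON peaks in 5′ UTRs that were CON-only. At stop codons these shares were 1.94% of VCD peaks and 3.17% of CON peaks. Stop codons were thus scarce among the unshared peaks of both lists.

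**Figure D1:**
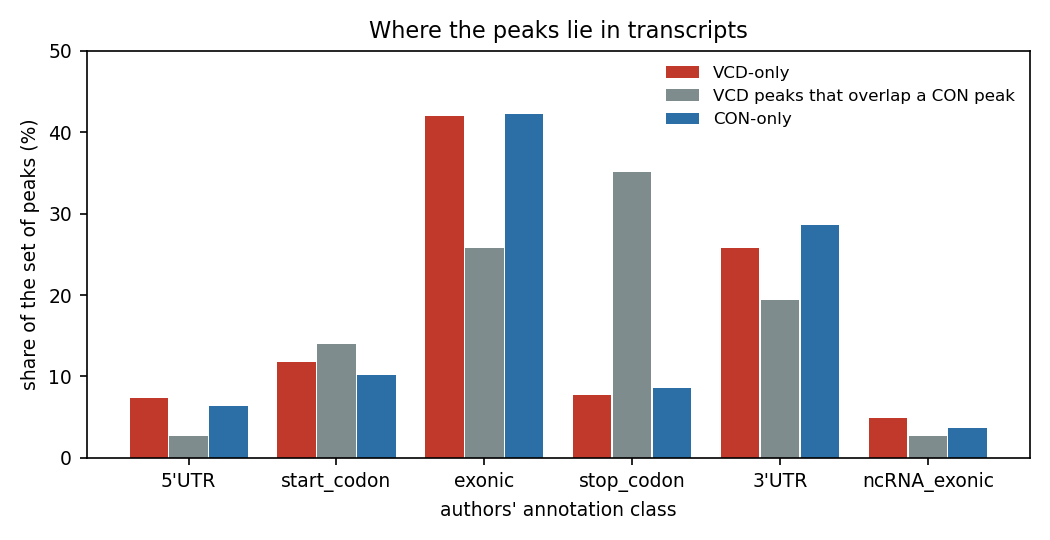
Share of each set of peaks (y axis, %) by the authors' annotation class (x axis) for VCD-only peaks, VCD peaks that overlap a CON peak, and CON-only peaks. The bars of both unshared sets are alike, with 7.7% of VCD-only and 8.53% of CON-only peaks at stop codons, while 35.2% of overlapping VCD peaks lie there.

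A few VCD-only peaks fell outside these classes, and they are named here after their values were seen. The 5 intronic ones lie in Rnf14, an E3 ubiquitin ligase, Slc11a1, a metal transporter of phagocytes, the class II histocompatibility genes RT1-Db1 and RT1-Da, and AABR07044408.1. Both histocompatibility genes varied among libraries. RT1-Da had 81.1, 87.0, 33.9 and 75.6 FPKM in VCD libraries and 40.4, 58.6, 66.4 and 70.8 FPKM in CON libraries. By transcript type, 1686 VCD-only peaks (94.8%) were in protein-coding transcripts, 46 in lincRNAs, 2 in 5.8S ribosomal RNA genes on chromosome 7 and 1 in a U4 small nuclear RNA gene. The ribosomal peaks had log2 enrichments of 5.38 and 6.14, yet both genes were at 0 FPKM in 6 and 7 of the 8 input libraries. Genes typed as ribosomal RNA summed to 28.6 to 56.9 FPKM in VCD libraries and 8.17 to 25.0 FPKM in CON libraries. No VCD-only peak was annotated to a miRNA gene, where 11 VCD peaks lay, or to the mitochondrial chromosome.

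Most VCD-only peaks were weak and short. Their median log2 enrichment of IP over input was 1.73 (quartiles 1.58 and 2.03), against 2.50 for the VCD peaks that overlap a CON peak, while CON-only peaks had a median of 1.68. The median span was 301 bases for VCD-only peaks, 326 bases for CON-only peaks and 1827 bases for overlapping VCD peaks, introns included. A long span is more likely to share a base with a peak of the other list. Of VCD peaks with a log2 enrichment of 1 to 2, 1296 of 7561 (17.1%) were VCD-only, and between 3 and 4 the share was 118 of 4914 (2.4%). Only 472 VCD-only peaks reached a log2 enrichment of 2 and 83 reached 4. In 5′ UTRs the median was 1.81 and in noncoding exons 1.94, whereas in 3′ UTRs it was 1.62. The authors' list gives 1 value a peak for all VCD rats together, so none has a replicate error, and the largest adjusted p of a VCD-only peak in it is 0.00676.

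**Figure D2:**
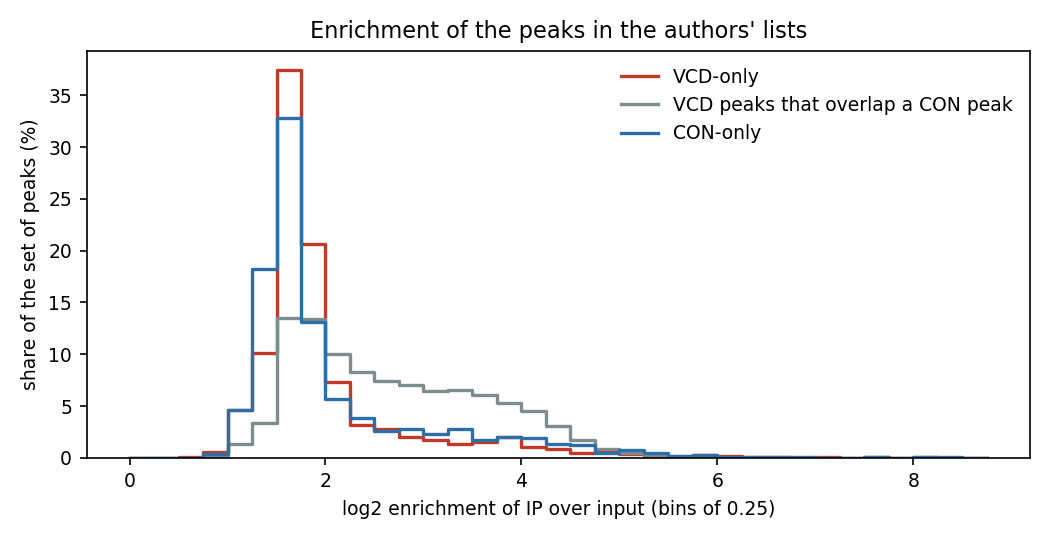
Distribution of log2 enrichment of IP over input (x axis, bins of 0.25) as a share of each set of peaks (y axis, %). VCD-only and CON-only peaks are both most frequent between 1.5 and 1.75 (37.4% and 32.8%), with medians of 1.73 and 1.68. The next highest bin is 1.75 to 2 for VCD-only (20.6%) and 1.25 to 1.5 for CON-only (18.3%). Overlapping VCD peaks reach further right, with a median of 2.50.

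The strongest VCD-only peaks in expressed genes lay mostly in exons, of genes whose input did not pass the test. The largest, with a log2 enrichment of 8.22, covers the start codon of Zfp420, a zinc finger gene, at chr1:88542035-88542384 on the + strand. Zfp420 had 1.68, 1.67, 1.17 and 1.12 FPKM in VCD libraries and 1.58, 1.44, 2.05 and 1.52 FPKM in CON libraries, and the groups overlapped. Next came Ubald1 (7.65, chr10:11342080-11342329, + strand, exonic) and Hnrnph3, an RNA-binding protein of the hnRNP H family (7.18, chr20:27176287-27212774, + strand, exonic). The Hnrnph3 peak lies 3′ of the gene's only CON peak, and 780 bases from the nearest CON peak of any gene on that strand. Gorasp2, a Golgi stacking protein, had a peak of 6.72 that lies 5′ of its CON peak, and 425 bases from the nearest CON peak on that strand. Hnrnph3 averaged 23.6 ± 3.72 FPKM in VCD and 24.0 ± 2.52 FPKM in CON (SD, n = 4 each), with a limma adjusted p of 0.91.

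Csf1, the growth factor of macrophages, had a 3′ UTR peak of 5.96 at chr2:210523850-210523949 on the - strand, only 75 bases from a CON peak on that strand. Its input was 6.64, 5.25, 5.73 and 6.21 FPKM in VCD libraries and 7.21, 6.42, 7.95 and 6.19 FPKM in CON libraries. These ranges overlapped. The other peaks among the 12 strongest in genes of at least 1 FPKM were in NEWGENE_1359268 (6.46), LOC100911713 (6.41), Spsb2 (5.91), Tma7 (5.78), Vkorc1l1 (5.64), Map3k1, a kinase of the MAPK cascade (5.43), and Trappc2b (5.12). Limma adjusted p values for the input of all 12 genes lay between 0.257 and 0.995, so none passed the test.

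Strong enrichment went with low input. The 83 peaks with a log2 enrichment of at least 4 lie in 77 genes, and 54 of the 76 genes with an input value had a mean under 1 FPKM over 8 libraries. The median input of these genes was 0.25 FPKM in VCD and 0.174 FPKM in CON. Across all VCD peaks, 423 of 2679 peaks in genes under 1 FPKM were VCD-only (15.8%), against 25 of 599 in genes of 100 FPKM or more (4.17%). VCD-only peaks in genes under 1 FPKM had a median log2 enrichment of 2.52, and those in genes of 1 to 5 FPKM 1.69. The read counts needed to give such a ratio an error were not analysed here.

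**Figure D3:**
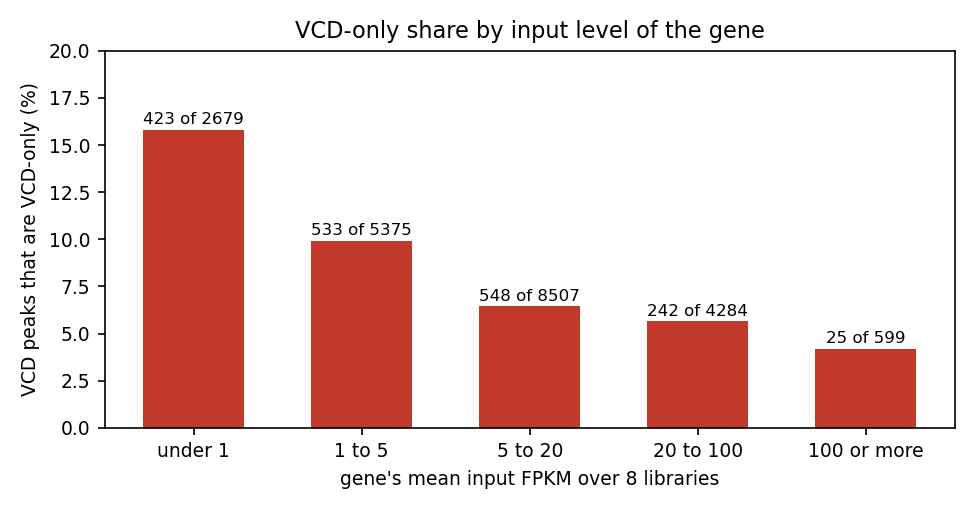
Share of VCD peaks that are VCD-only (y axis, %) by the gene's mean input FPKM over 8 libraries (x axis), with the number of VCD-only and of all VCD peaks above each bar. The share is 15.8% under 1 FPKM and 4.17% at 100 FPKM or more.

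Most VCD-only peaks lay in genes with a peak in both groups. In 1157 genes 1284 of them stood beside a CON peak of the same gene, and 450 genes with 495 of them had no CON peak. Relative to the nearest CON peak of the gene, 767 lay 5′ and 517 lay 3′ of it. The 5′ ones included 375 in exons, 169 at start codons and 113 in 5′ UTRs, and the 3′ ones included 294 in 3′ UTRs. The median distance to any CON peak on the same strand was 6196 bases on the genome, introns included. Of the VCD-only peaks, 208 lay within 100 bases of a CON peak. At the edge of the rule, 28 VCD-only peaks touched a CON peak with 0 bases between them, and their median log2 enrichment was 1.69. The 28 VCD peaks that shared 25 bases with a CON peak had a median of 1.68. Pbk, Cd44, Dpp4 and Kdm7a are among the genes whose VCD-only peak directly abuts a CON peak, and they were picked after the distances were seen.

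Several genes held more than 1 VCD-only peak: 138 held 2, 11 held 3 and 4 held 4. Akap9, an anchoring protein of kinase A at the Golgi and centrosome, held 4 with log2 enrichments of 1.07 to 1.80, beside 7 CON peaks. Its input was 4.43, 4.89, 4.77 and 3.39 FPKM in VCD libraries and 5.90, 5.51, 6.82 and 5.19 FPKM in CON libraries. All 4 VCD libraries lay below the CON libraries, and the test was not passed (log2 change -0.36 ± 0.12 SE, limma adjusted p = 0.166). AABR07001382.1, a noncoding gene, also held 4, beside 8 CON peaks. The other pair were the receptor genes Adra2b (alpha-2B adrenergic receptor) and Chrm3 (muscarinic receptor M3), which were too low to test. Adra2b averaged 0.542 ± 0.0719 FPKM in VCD and 0.433 ± 0.113 FPKM in CON, and Chrm3 0.273 ± 0.161 FPKM in VCD and 0.231 ± 0.0803 FPKM in CON (SD, n = 4 each). Chrm3's peaks reached 3.33 to 4.15 and lay 25 to 675 bases from a CON peak. Sphkap, an anchoring protein of kinase A, had 3 peaks of 3.04 to 4.73 and no CON peak. Its input was 0.376, 0.369, 0.161 and 0.412 FPKM in VCD libraries and 0.0149, 0.121, 0.117 and 0.121 FPKM in CON libraries, below the level tested. The VCD values all lay above the CON values.

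By gene, 457 had a VCD peak and no CON peak at all, against 766 with a CON peak and no VCD peak. Of the 457, 450 hold a VCD-only peak, and 7 have only peaks that overlap a CON peak annotated to another gene. Their VCD-only peaks differ in layout from those of genes with a CON peak, with 79 of 495 at stop codons (16.0%) and 54 in noncoding exons (10.9%), against 58 (4.52%) and 34 (2.65%) of 1284. Their median log2 enrichment was 1.88, against 1.70 for VCD-only peaks in genes with a CON peak. These genes were expressed at low levels, with a median of 1.95 FPKM in VCD and 2.26 FPKM in CON, and 163 were under 1 FPKM in both groups. The median input of genes with a CON peak alone was 0.381 FPKM in VCD and 0.882 FPKM in CON.

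Some of the most abundant ovarian transcripts were nevertheless among the genes with a peak in VCD alone. Gsta1, a glutathione transferase of detoxification, had an exonic peak of 2.38 at chr9:27440241-27441371 on the - strand. Its input was 574, 804, 473 and 566 FPKM in VCD libraries and 515, 679.7, 594 and 716 FPKM in CON libraries, which overlapped. The ribosomal protein genes Rpl27a and Rps6 had peaks of 1.70 and 1.79. Rpl27a averaged 562 ± 29.1 FPKM in VCD and 639.6 ± 61.7 FPKM in CON, and Rps6 451 ± 59.4 FPKM in VCD and 426 ± 152 FPKM in CON (SD, n = 4 each). Psma7, a proteasome subunit, Atp5me, a subunit of ATP synthase, and Eef1b2, a translation elongation factor, had peaks of 1.78, 1.65 and 1.63 at inputs of 124 to 133 FPKM in VCD and 124 to 133 FPKM in CON. The remaining ones of the 10 highest were AABR07004894.1, AC134224.1, LOC108348062 and LOC100911713. Limma adjusted p values of the 10 genes lay between 0.134 and 0.995. Ribosomal protein and elongation factor genes have many near-identical copies in the genome, and the sources used here do not say how reads shared among copies were counted, so their peaks are uncertain.

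In the authors' deposited table of differential peaks, CON ovary also had enrichment at most of the VCD-only peaks it lists. Of its 5533 peaks, 26 have the exact coordinates of a VCD-only peak. In the authors' deposited table all 26 were higher in VCD, where 82.8% of all listed peaks are higher, and 12 were marked significant, where 7.79% of all listed peaks are. Their median log2 enrichment was 2.18 in VCD and 1.31 in CON, and 24 of the 26 had a CON enrichment of at least 1. The rule used the same libraries, so neither the direction nor the share marked significant is separate evidence, here or for partial overlap. Counting partial overlap, 204 VCD-only peaks share a base with a listed peak, which is higher in VCD for 198 of them. For 76 of the 204 the listed peak is marked significant, and for 72 it is both marked and higher in VCD.

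Tma7, a small protein associated with the translation machinery, had the largest difference of the 26 in the authors' deposited table, with 5.76 in VCD and 2.46 in CON over its stop codon (chr8:117815725-117820410, - strand). Its input did not pass the test, at 43.5 ± 1.22 FPKM in VCD and 48.8 ± 9.12 FPKM in CON (SD, n = 4 each; limma adjusted p = 0.529). Ticam2, an adaptor of Toll-like receptor 4, was listed at 2.70 in VCD and 0.28 in CON in its 3′ UTR by the authors' deposited table, the lowest CON value of the 26. The 5′ UTR peak of Cyp51, the sterol 14-demethylase of cholesterol synthesis, was listed at 2.58 in VCD and 1.53 in CON by the authors' deposited table and was marked significant, with an adjusted p of 0.186 in that table. That of Hbegf, an EGF receptor ligand, was listed by the authors' deposited table at 2.20 in VCD and 1.33 in CON and was not marked. Among the 26, all marked peaks had a log2 difference of at least 1, and none of the unmarked ones did. The mark did not follow the adjusted p, since unmarked Vegfd had an adjusted p of 6.09e-06 in the authors' deposited table. Ankrd11, a chromatin regulator, and Prpf6, a splicing factor, both with peaks at the 5′ end, were listed by the authors' deposited table at 1.89 and 2.18 in VCD and 1.31 and 1.53 in CON.

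**Figure D4:**
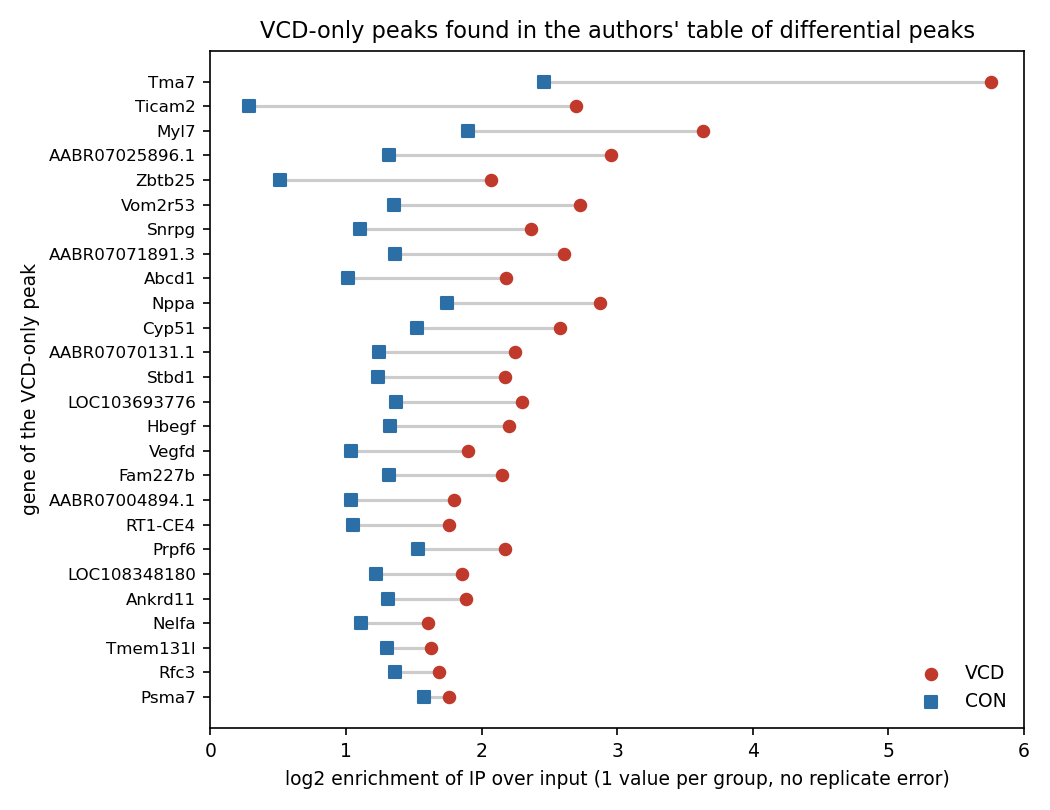
Log2 enrichment of IP over input in VCD (circles) and CON (squares) for the 26 VCD-only peaks at identical coordinates in the authors' table of differential peaks, ordered by the difference. Each value covers a whole group, and CON lies at 1 or above in 24 of 26.

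The lists hold no enrichment for single rats, but the input does hold their levels. Nppa (atrial natriuretic peptide) and Myl7 (an atrial myosin light chain) are heart muscle genes, picked after their values were seen. Both had a VCD-only stop codon peak, of 2.89 and 3.65. Nppa had 0, 5.99, 2.05 and 0 FPKM in VCD libraries and 0.114, 0, 10.6 and 0 FPKM in CON libraries, so its highest input was in a CON rat. Myl7 had 0, 0.822, 0.0681 and 0 FPKM in VCD libraries and 0, 0, 2.04 and 0.0476 FPKM in CON libraries. Both genes had their highest values in CON 3 and VCD 2. The source of this RNA was not tested. Nr1i2, the xenobiotic receptor PXR, had 2 VCD-only peaks and no CON peak, and 1.24 FPKM in VCD 3 against at most 0.0672 FPKM in the other VCD libraries. In 76 of the 1600 genes with a VCD-only peak and an input value (4.75%), 1 library held more than 50% of the VCD total. Of 12271 genes with a VCD peak that overlaps a CON peak, 268 did so (2.18%). Listed at 0 in at least 2 VCD libraries were 24 (1.5%) and 98 (0.799%) of these genes. The 2 sets were not matched for input level.

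Input RNA was then compared between VCD and CON libraries across all genes, which asks whether genes with VCD-only peaks also differ in transcript level. The input libraries entered the peak calls too, so the test is not fully independent of the rule. Of the 1607 genes, 1600 have an input value, 1373 passed the filter of a mean of 0.5 FPKM and 8 passed the test, 3 higher and 5 lower in VCD. Over all 14978 genes tested 0.447% passed, 0.107% higher and 0.34% lower in VCD, so 8 of 1373 is near the background. With the replicate number as a block, all input genes called numbered 31 in place of 67. Genes with a VCD-only peak called then numbered 2 in place of 8. The median log2 change was -0.09 for genes with a VCD-only peak and -0.06 for all genes tested, and 960 of the 1373 had a lower value in VCD, as did 9512 of all 14978 genes tested. Library ranges separated completely for 31 genes with higher and 168 with lower values in VCD, where 2.27% and 9.58% of all genes tested did so. Of the 457 genes with a peak in VCD alone, 317 were tested and 2 passed, both higher in VCD, and 1 of these, AABR07044404.1, holds a VCD-only peak. Their median log2 change was -0.08, against -0.11 for 420 tested genes with a peak in CON alone, of which 0 were called higher and 8 called lower. Genes with a VCD-only peak had a median input of 4.21 FPKM in VCD and 4.77 FPKM in CON. In bulk ovary, fewer cells of a type and less RNA per cell cannot be told apart.

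Per1, a repressor of the circadian clock, was the only one of the 8 to keep its call without any 1 library. It was also the only one of the 8 to keep it with the replicate number, 1 to 4 in each group, as a block. It had 42.2, 38.1, 38.6 and 43.7 FPKM in VCD libraries and 21.0, 23.7, 22.7 and 25.2 FPKM in CON libraries (log2 change 0.79 ± 0.08 SE, limma adjusted p = 0.00493). Every VCD library lay above every CON library, and the adjusted p with the block was 0.0451. Its VCD-only peak has a log2 enrichment of 1.68 and starts at the gene's 5′ end (chr10:55687050-55687174, + strand). That peak lies 5′ of the nearest of the gene's 2 CON peaks, and 4984 bases from the nearest CON peak on that strand. The other genes that rose were AABR07044404.1, with 11.7 ± 2.26 FPKM in VCD and 5.81 ± 0.532 FPKM in CON at a limma adjusted p of 0.0369 (SD, n = 4 each), and the noncoding AABR07044001.4, with 9.04 ± 0.767 FPKM in VCD and 4.73 ± 1.11 FPKM in CON (limma adjusted p = 0.0455). With the block their adjusted p values were 0.0629 and 0.0844.

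The 5 genes that fell were Ska1, Pimreg, Ccnf, Nt5e and Col11a1. Oocyte markers were also lower in VCD (5.65 to 8.82 against 20.6 to 34.1 FPKM), and their part was not tested. Ska1, a subunit of the spindle and kinetochore associated complex (and no member of the kinetochore list below), had 0.67, 0.637, 0.917 and 0.535 FPKM in VCD libraries and 2.32, 1.92, 2.22 and 1.73 FPKM in CON libraries (log2 change -0.85 ± 0.12 SE, limma adjusted p = 0.021). Pimreg, a regulator of mitosis, had 2.69, 2.21, 3.33 and 2.01 FPKM in VCD libraries and 7.27, 5.80, 5.12 and 4.78 FPKM in CON libraries (log2 change -0.92 ± 0.15 SE, limma adjusted p = 0.0429). Ccnf, cyclin F, averaged 2.39 ± 0.345 FPKM in VCD and 4.94 ± 1.03 FPKM in CON (SD, n = 4 each; limma adjusted p = 0.0499). In all 3 the groups did not overlap. Their VCD-only peaks were weak, at 1.55, 1.73 and 1.49, and lay 5′ of the nearest CON peak of the gene. The nearest CON peak of any gene on the strand was 542, 2496 and 25 bases away.

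Nt5e, the surface enzyme CD73 that makes adenosine from AMP, had 7.35, 7.17, 7.24 and 6.99 FPKM in VCD libraries and 12.2, 10.8, 11.3 and 10.3 FPKM in CON libraries (log2 change -0.57 ± 0.07 SE, limma adjusted p = 0.0208). Col11a1, a chain of fibrillar collagen XI, averaged 10.4 ± 1.57 FPKM in VCD and 18.8 ± 2.40 FPKM in CON (SD, n = 4 each), with a limma adjusted p of 0.0308. Neither gene's groups overlapped. None of the 5 passed with the replicate number as a block. Their limma adjusted p values were then 0.0664 for Ska1, 0.067 for Col11a1 and 0.0721 for the other 3. Entpd1 (CD39), which acts before Nt5e in breaking down ATP, also had a VCD-only peak, of 4.04 in its 3′ UTR, and its input was 7.32 ± 0.976 FPKM in VCD and 8.35 ± 1.71 FPKM in CON (SD, n = 4 each; limma adjusted p = 0.56). Of the 8 genes, 1 kept its call without VCD 4, CON 1 or CON 2 (Per1), 2 without VCD 2 or CON 3, 3 without VCD 1, 5 without VCD 3 and 6 without CON 4.

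**Figure D5:**
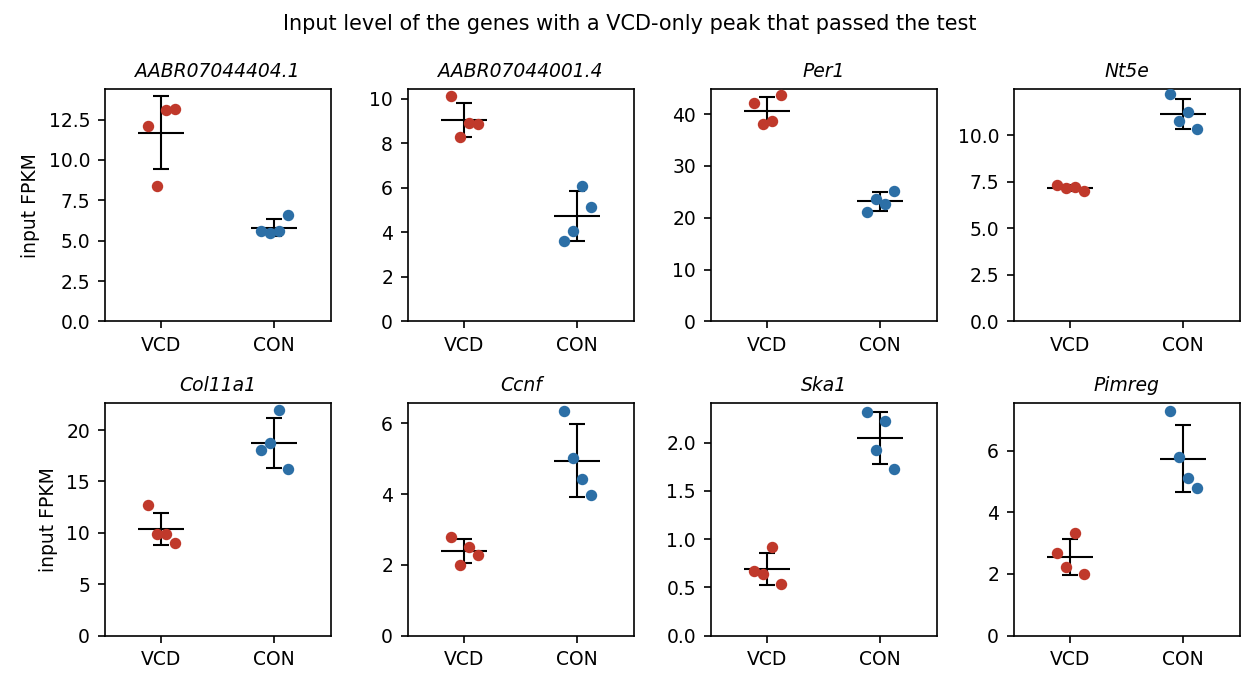
Input FPKM (y axis, from 0) in 4 VCD and 4 CON libraries for the 8 genes with a VCD-only peak that passed the test. Points are libraries and bars are mean ± SD, and the groups do not overlap in any of the 8 panels.

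The rule also named genes whose libraries separated without passing. Among those lower in VCD, Kif23, a kinesin of cytokinesis, had 2.21, 1.68, 2.73 and 0.968 FPKM in VCD libraries and 5.78, 4.78, 5.46 and 3.80 FPKM in CON libraries. Its log2 change was -1.07 ± 0.20 SE (limma adjusted p = 0.0605), and with the replicate block it passed at 0.0453. Pbk, a mitotic kinase, Ncaph, a condensin subunit, Septin7, Gria3, an AMPA receptor subunit, and AABR07042611.1 had log2 changes of -1.07 to -0.82 and adjusted p values of 0.072 to 0.107. Among those higher in VCD were Nxpe5l1, Aard, Coq10b, a coenzyme Q binding protein, Actn2, a muscle actinin, Sox17, a transcription factor of endothelium, and Lsm1, a factor of mRNA decapping. Their log2 changes were 0.40 to 2.09 and their adjusted p values 0.076 to 0.157. Coq10b had 85.8, 49.2, 55.7 and 69.3 FPKM in VCD libraries and 34.7, 34.6, 44.6 and 39.1 FPKM in CON libraries.

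Genes of 25 pathway and cell type lists were looked up among the VCD-only peaks. Of 438 list genes with a VCD peak, 33 held a VCD-only peak (7.53%), against 12.5% of all genes with a VCD peak. The lists were chosen with earlier results of these data known and the shares are counts with no test. None of the 21 m6A writers, erasers and readers with a VCD peak held one, nor did any of 28 kinetochore, spindle and checkpoint genes, 17 granulosa genes, 13 hedgehog genes, 13 stromal genes, 10 smooth muscle genes or 5 genes named in the series text. Of 8 oocyte genes with a VCD peak 1 held one, Tle6, a part of the subcortical maternal complex. Its input was 1.91 ± 0.387 FPKM in VCD and 2.96 ± 0.628 FPKM in CON (SD, n = 4 each; limma adjusted p = 0.155), and 12 of the 18 oocyte genes tested were called lower, where 0.34% of all genes tested were.

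In the list of theca, luteal and steroidogenic genes, 2 of 17 genes with a VCD peak held a VCD-only one. They were Cyp51 and Cyp11a1, the side-chain cleavage enzyme that makes pregnenolone. Cyp11a1's 5′ UTR peak of 1.78 starts at the gene's 5′ end and lies 5′ of the gene's CON peak, with 25 bases to the nearest CON peak on that strand. Its input was 3302, 3978, 4035 and 3144 FPKM in VCD libraries and 2211, 3129, 2276 and 3853 FPKM in CON libraries, which overlapped. Cyp51 had 77.2, 149, 118 and 92.0 FPKM in VCD libraries and 56.2, 75.1, 54.6 and 90.8 FPKM in CON libraries (limma adjusted p = 0.179), and the groups overlapped. None of the 20 genes of this list that were tested passed.

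In the list of EGFR, MAPK and growth factor feedback genes, 3 of 21 genes with a VCD peak held a VCD-only one, the ligand Hbegf, the receptor Egfr and the transcription factor Etv4. Hbegf had 13.3, 9.83, 5.98 and 21.0 FPKM in VCD libraries and 3.71, 6.40, 8.17 and 4.16 FPKM in CON libraries (log2 change 0.96 ± 0.34 SE, limma adjusted p = 0.18). Egfr averaged 10.6 ± 2.23 FPKM in VCD and 13.1 ± 2.79 FPKM in CON (SD, n = 4 each). In this list 3 of 23 tested genes were called higher, where 0.107% of all genes tested were, and 0 lower, and none of the 3 holds a VCD-only peak. Of 17 clock genes with a VCD peak, Per1, Nr1d2, a clock repressor of the REV-ERB pair, and Rora, its activating counterpart, held one. Nr1d2 had 18.0, 19.8, 11.8 and 17.1 FPKM in VCD libraries and 9.48, 11.2, 12.2 and 12.9 FPKM in CON libraries, and only VCD 3 reached into the CON range (limma adjusted p = 0.15, and 0.0499 without VCD 3).

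The replication and cell cycle list had the largest share, 5 of 20 genes (25%), which is a count with no test. They were the replicative helicase subunits Mcm4, Mcm6 and Mcm7 and the cyclins Ccnd1 and Ccne1. Mcm7 had 14.4, 11.3, 12.2 and 13.6 FPKM in VCD libraries and 20.7, 17.7, 18.4 and 15.7 FPKM in CON libraries, with no overlap (log2 change -0.46 ± 0.10 SE, limma adjusted p = 0.0821). Mcm6 averaged 6.89 ± 1.64 FPKM in VCD and 10.8 ± 2.24 FPKM in CON (SD, n = 4 each; limma adjusted p = 0.131). Of the 25 genes of the list tested, 0 passed, and their median log2 change was -0.46. Brca2, of homologous recombination, held the single VCD-only peak among 22 repair genes with a VCD peak.

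In the lists on defence against chemicals, Osgin1 and Nqo1 of the NRF2 response and Gsta1 and Nr1i2 of xenobiotic metabolism held VCD-only peaks, 2 of 11 genes in each list. Osgin1's peak starts at the gene's 5′ end with a log2 enrichment of 1.72, and its input was 187, 284, 157 and 297 FPKM in VCD libraries and 135, 179.7, 167 and 235 FPKM in CON libraries. Nqo1, a quinone reductase, had no CON peak and averaged 10.7 ± 3.25 FPKM in VCD and 13.3 ± 7.39 FPKM in CON (SD, n = 4 each). No tested gene of either list passed. The histone demethylases Kdm1a, Kdm6b and Kdm7a and the methyltransferase Setd2 were the 4 of 31 histone methylation genes with a VCD-only peak, and Kdm1a, with 17.3 ± 0.631 FPKM in VCD and 19.0 ± 0.733 FPKM in CON, was not called (limma adjusted p = 0.331). Of growth control genes, Mtor and Rptor, the kinase and scaffold of mTOR complex 1, held 1 each at 1.42 and 1.80. The remaining lists held 1 each, in Fosl1, Ppm1d, Casp9, Fstl3, Notch3, Sox17, Cd3e and Fabp4. Fabp4, a fatty acid carrier of adipocytes and endothelium, had a stop codon peak of 2.31 and no CON peak. Its input was 29.1, 22.9, 30.1 and 52.7 FPKM in VCD libraries and 249, 37.2, 42.5 and 28.0 FPKM in CON libraries, 1 CON rat lying far above the rest.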

How the data were processed

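Peaks were taken from the authors' lists, 1 for each group of 4 rats, per the file headers, each peak with a log2 enrichment of IP over input, a p-value and an adjusted p-value. Expression was deposited as FPKM per gene by the authors, per the file headers, for 22663 genes in 8 input libraries. Tools named without roles by the submitters' processing notes are HOMER 4.10, edgeR 4.1, StringTie 2.1.2, HISAT2 2.0.4 and fastp 0.19.4, and the notes name the human build GRCh38, while the files hold rat gene identifiers. The sources used here do not give a rat build for the peaks. Coordinates are therefore those of the files, counted from 1, and peak sequences were not read. Replicates are separate rats by title.

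VCD-only peaks are those with no overlap of 1 base or more with a CON peak of that strand (Python 3.11.15, checked against bedtools 2.31.1). All distances between peaks are counted on the genome, introns included. The 14978 genes that averaged 0.5 FPKM or more were tested on log2(FPKM + 1), which understates changes of low genes, by the limma functions lmFit and eBayes (trend on; limma 3.58.1, R 4.3.3) and Benjamini-Hochberg adjustment over all of them, called at an adjusted p under 0.05. The fit was tested on simulated data. Batch numbers 1 to 4 are the same as the replicate numbers of the rats in each group. They were taken to pair the rats by label, so the block may be arbitrary. Deviations of same-numbered libraries correlated at -0.01, -0.09, 0.01 and -0.07. The block is an alternative, printed where it changes a call.

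Named genes are those with the 12 strongest VCD-only peaks (1 FPKM or more), the 3 strongest of each annotation class, up to 8 genes with the most VCD-only peaks, genes called and the 6 highest and 6 lowest others whose libraries separate, the 10 most abundant genes with a peak in VCD alone, and up to 4 members of each list. The peaks, members and lists were chosen with earlier results of these data known.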

Additional observations from a re-analysis of the deposited data

Results flagged for a closer look

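In groups of 4 libraries of 1 gene, single libraries stood far from the other 3 in 14 of 184 groups checked over 92 named genes. Chance alone gives about 1 in 20 such groups. Fabp4 was at 249 FPKM in CON 1 (others 28.0 to 42.5). Egfr was at 8.93 FPKM in CON 1 (others 14.0 to 14.8). AABR07063740.2 was at 0.978 FPKM in CON 1 (others 1.62 to 1.73) and Sphkap at 0.0149 FPKM in CON 1 (others 0.117 to 0.121). Entpd1 was at 10.9 FPKM in CON 3 (others 7.22 to 7.69), and AABR07044404.1 at 6.60 FPKM in CON 4 (others 5.45 to 5.62).

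In VCD libraries, Nxpe5l1 was at 22.9 FPKM in VCD 1 (others 5.31 to 7.59) and Cd3e at 2.47 FPKM in VCD 1 (others 1.55 to 1.68). Nr1i2 was at 1.24 FPKM in VCD 3 (others 0 to 0.0672) and Sphkap at 0.161 FPKM in VCD 3 (others 0.369 to 0.412). Gtf2ird1 was at 5.44 FPKM in VCD 2 (others 4.24 to 4.32) and Kdm1a at 16.4 FPKM in VCD 2 (others 17.5 to 17.7). Fstl3 was at 5.45 FPKM in VCD 4 (others 3.67 to 3.80) and Vkorc1l1 at 5.32 FPKM in VCD 4 (others 4.41 to 4.56). CON 1 was the library named most often, 4 times.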

How the results depend on the processing

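The count of peaks listed in VCD alone was 1779. It was 1750 with overlap counted on either strand and 1571 with no CON peak within 100 bases. With a shared peak defined by 50% coverage it was 2622. With both lists kept to a log2 enrichment of 2 it was 1452, and with only the VCD list kept to 2 it was 472. Only 472 of the 1779 reach 2, so the 1452 include VCD peaks that overlap a CON peak under 2. The count of genes with a peak in VCD alone was 457, 715 with both lists kept to 2 and 205 with only the VCD list kept to 2. An overlap of exon blocks was not run, since the files give spans only. Of all input genes 67 were called, 3 with a mean of 5 FPKM or more, 31 with the replicate block and 12 to 115 without 1 library. Of genes with a VCD-only peak 8 were called, 4 with no filter, 1 with a mean of 5 FPKM or more, 2 with the replicate block and 1 to 11 without 1 library. The 2 called with the block were Per1 and Kif23. Of genes with a peak in VCD alone 2 were called, 0 with a mean of 5 FPKM or more, 0 with the replicate block and 0 to 2 without 1 library. The median log2 change of genes with a VCD-only peak was -0.09, -0.0048 after quantile normalization, -0.012 at a common median and -0.11 to -0.07 without 1 library. The median log2 change of genes with a peak in VCD alone was -0.08, -0.019 with no filter, -0.0020 after quantile normalization, -0.0088 at a common median and -0.10 to -0.07 without 1 library. Over all genes the common median moved the median log2 change to 0.02, against -0.06, so the small negative medians depend on the scaling. The cause was not tested. Over 85 named genes with a test and 1163 alternatives in all, 1092 left the call as it was, 65 lost it and 6 gained it. All 65 losses were among the 8 called genes, and none was of Per1. The other named genes had no call to lose. In 25 named genes the sign of the change differed between alternatives. FPKM hold no read totals, so what depth limits cannot be stated.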
